A study of Mus musculus with 2 samples.

Results

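The osteoclast resorption and fusion genes examined here are 10 of the 19465 genes counted in the sections: the secreted or luminal enzymes Ctsk, Acp5 and Mmp9, the fusion genes Atp6v0d2, Dcstamp and Ocstamp, the surface receptors Calcr and Oscar, and the transcription factors Nfatc1 and Jdp2. They were chosen by name, as genes known to be used by osteoclasts, but with earlier results of these data known. All 10 were present in both sections. The sections came from the healing femurs of 1 Control and 1 Loaded mouse, both female bone cell reporter (BCR) mice, in which an osteoblast target (Ibsp) and an osteoclast target (Acp5, itself 1 of the 10 genes) carry fluorescent reporters. Whether the reporter at the Acp5 locus changes the Acp5 counts is not given in the sources used here. Both mice received a mid-diaphyseal femoral osteotomy with an external fixator at 12 weeks of age and were collected at 17 weeks. From 3 to 5 weeks after surgery, the Loaded femur received individualized cyclic mechanical loading 3 times per week through the fixator and the Control femur received sham-loading on the same schedule. The bone region of each section was the authors' selection of all bone spots between the middle pins.

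Osteoclasts arise when cells of the monocyte and macrophage lineage fuse under macrophage colony-stimulating factor and RANK ligand, a step that needs the transcription factor NFATc1. The fused cell seals off a patch of bone, acidifies it with a proton pump and releases proteases that digest the exposed collagen matrix. In a healing fracture, osteoclasts remodel the callus and the cortical ends.

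Gene expression was measured as unique molecular identifiers (UMIs) in spots 55 μm wide and 100 μm apart. A spot holds several cells, so fewer osteoclasts and less RNA per osteoclast cannot be told apart. The Control section held 9002147 UMIs in 1962 spots, 131 of them in the bone region (557259 UMIs, median of 3478 per spot). The Loaded section held 4910716 UMIs in 1436 spots, 146 of them in the bone region (409020 UMIs, median of 2621 per spot). Osteoblast markers accounted for 2.10% and 6.78% of the UMIs in the Control and Loaded bone regions, osteocyte markers for 0.00933% and 0.0799% (0.00620% and 0.00636% in muscle spots), and skeletal muscle markers for 15.8% and 8.30%. The barcodes of 557 spots occurred in both sections, as positions of the same printed grid. With 1 section per group, no test between Control and Loaded was possible, and every interval below is a 95% interval that covers counting error only.

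Ctsk (ENSMUSG00000028111; GRCm38 chromosome 3, 95499256 to 95509362, plus strand) encodes cathepsin K, the main collagen-degrading protease of osteoclasts. Acp5 (ENSMUSG00000001348; chromosome 9, 22126727 to 22135711, minus strand) encodes tartrate-resistant acid phosphatase, and Mmp9 (ENSMUSG00000017737; chromosome 2, 164940780 to 164955850, plus strand) encodes a gelatinase that neutrophils carry as well. RefSeq start sites with a promoter window (250 bases before to 50 bases after the start, GRCm38.p6) were at hand for 5 of the 10 genes. The windows of Ctsk, Acp5 and Oscar are shown because Ctsk and Acp5 shared most of their richest spots and Oscar, a receptor that promotes osteoclast differentiation, held the most matches to the core of NFAT sites in a single window. Acp5 has 3 such windows, and the one with the most matches is shown, while the other two held 1 GGAAA match each. Capitals mark GGAAA or its reverse complement TTTCC and, in Acp5, CACATGA, the reverse complement of the MITF-type E-box TCATGTG. Both strands were searched, and the windows are printed 5′ to 3′ on the strand of the gene.

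Ctsk, chr3:95498960-95499259, plus strand: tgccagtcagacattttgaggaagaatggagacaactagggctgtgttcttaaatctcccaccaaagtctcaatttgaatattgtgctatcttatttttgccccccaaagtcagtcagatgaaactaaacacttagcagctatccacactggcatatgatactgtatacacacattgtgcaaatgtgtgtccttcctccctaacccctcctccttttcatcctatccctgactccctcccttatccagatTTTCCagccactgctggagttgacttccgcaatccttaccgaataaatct

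Acp5, chr9:22130549-22130848, minus strand: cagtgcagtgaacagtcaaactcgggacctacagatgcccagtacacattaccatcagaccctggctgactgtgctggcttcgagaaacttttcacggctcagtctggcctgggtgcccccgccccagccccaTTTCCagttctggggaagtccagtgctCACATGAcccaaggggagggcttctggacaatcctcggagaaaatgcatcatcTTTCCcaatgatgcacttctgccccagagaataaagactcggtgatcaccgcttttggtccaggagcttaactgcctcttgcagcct

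Oscar, chr7:3616108-3616407, minus strand: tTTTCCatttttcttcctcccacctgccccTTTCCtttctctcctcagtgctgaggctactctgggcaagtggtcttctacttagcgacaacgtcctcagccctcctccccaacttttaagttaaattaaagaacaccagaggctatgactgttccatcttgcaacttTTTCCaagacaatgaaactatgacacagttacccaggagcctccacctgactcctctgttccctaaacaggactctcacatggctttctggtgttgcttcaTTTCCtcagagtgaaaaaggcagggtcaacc

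GGAAA occurred 1 time in the Ctsk window, 2 times in this window of Acp5 and 4 times in the Oscar window. The windows not shown held 0 and 1 match for Calcr and 0, 0 and 1 for Jdp2. The motif is common, and 61.3% of 32851 promoter windows of the same length held it. TCATGTG was found 1 time, in the Acp5 window, and 3.77% of all windows held it. The AP-1 motif TGANTCA, found in 7.81% of all windows, was in none of the windows of Ctsk, Calcr, Oscar, Acp5 and Jdp2. A match is a description of the letters and not evidence of binding.

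Within the bone region, the enzymes were gathered in a few places. In each section, the region was split along its long axis into 2 sides, by position alone. Each side was divided at its middle into blocks a and b, giving 4 blocks per region (the labels carry no anatomical match between the sections). In the Control section, block 2b, 1 of the 2 blocks of side 2, contained 641 of the 1025 Ctsk UMIs, 447 of the 626 Acp5 UMIs and 242 of the 427 Mmp9 UMIs. The normalized level of Ctsk in the Control blocks 1a, 1b, 2a and 2b was 4.38, 4.64, 2.48 and 13.1 UMIs per spot. Block 2b was therefore above the other 3 blocks, and block 2a, on the same side, was the lowest. For Acp5, the corresponding levels were 2.79, 1.68, 0.562 and 9.12 UMIs per spot, again with block 2b far above the rest. Mmp9 reached 2.24, 2.44, 0.983 and 4.94 UMIs per spot in the same order of blocks.

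In the Loaded section, the same genes were spread more evenly over the blocks. Ctsk measured 4.54, 7.28, 9.48 and 7.83 UMIs per spot in blocks 1a, 1b, 2a and 2b. Acp5 measured 1.10, 2.89, 3.92 and 2.66, and Mmp9 measured 4.20, 4.89, 5.69 and 5.84 UMIs per spot. The largest Loaded block, 2a, held 41.2% of the Ctsk UMIs, 45.7% of the Acp5 UMIs and 35.9% of the Mmp9 UMIs, compared with 62.5%, 71.4% and 56.7% in the largest Control block. The highest block exceeded the lowest 5.27-fold for Ctsk, 16.2-fold for Acp5 and 5.03-fold for Mmp9 in Control, and 2.09-fold, 3.55-fold and 1.39-fold in Loaded. Over all genes with at least 100 UMIs and none of the blocks at 0, the median of this ratio was 2.80 in Control (777 genes) and 1.66 in Loaded (506 genes), so blocks of the Control region also differed more in general.

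Osteoblast and muscle markers also set block 2b apart. Osteoblast markers made up 4.78% of its UMIs and 0.533% to 1.96% in the other Control blocks, whereas muscle markers made up 5.12% and 9.77% to 28.9%, respectively. Macrophage markers did not, with 0.132% of the UMIs of block 2b and 0.126% of block 2a, the Control block lowest in the enzymes. They made up 0.0369% in block 1a and 0.0646% in block 1b. In the Loaded region, block 2a had the highest osteoblast share (9.25%, other blocks 4.46% to 6.51%) and the lowest muscle share (5.45%, other blocks 8.16% to 10.9%). Granulocyte markers were lowest in these blocks, at 0.0672% in Control block 2b (other blocks 0.0925% to 0.261%) and 0.253% in Loaded block 2a (0.434% to 0.613%). The 0.613% was in Loaded block 2b, the block with the highest Loaded Mmp9 level. Erythroid markers were also lowest in Control block 2b (1.61%) and Loaded block 2a (1.76%). The part of these tissue differences in the block levels of the osteoclast genes was not tested.

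**Figure D1:**
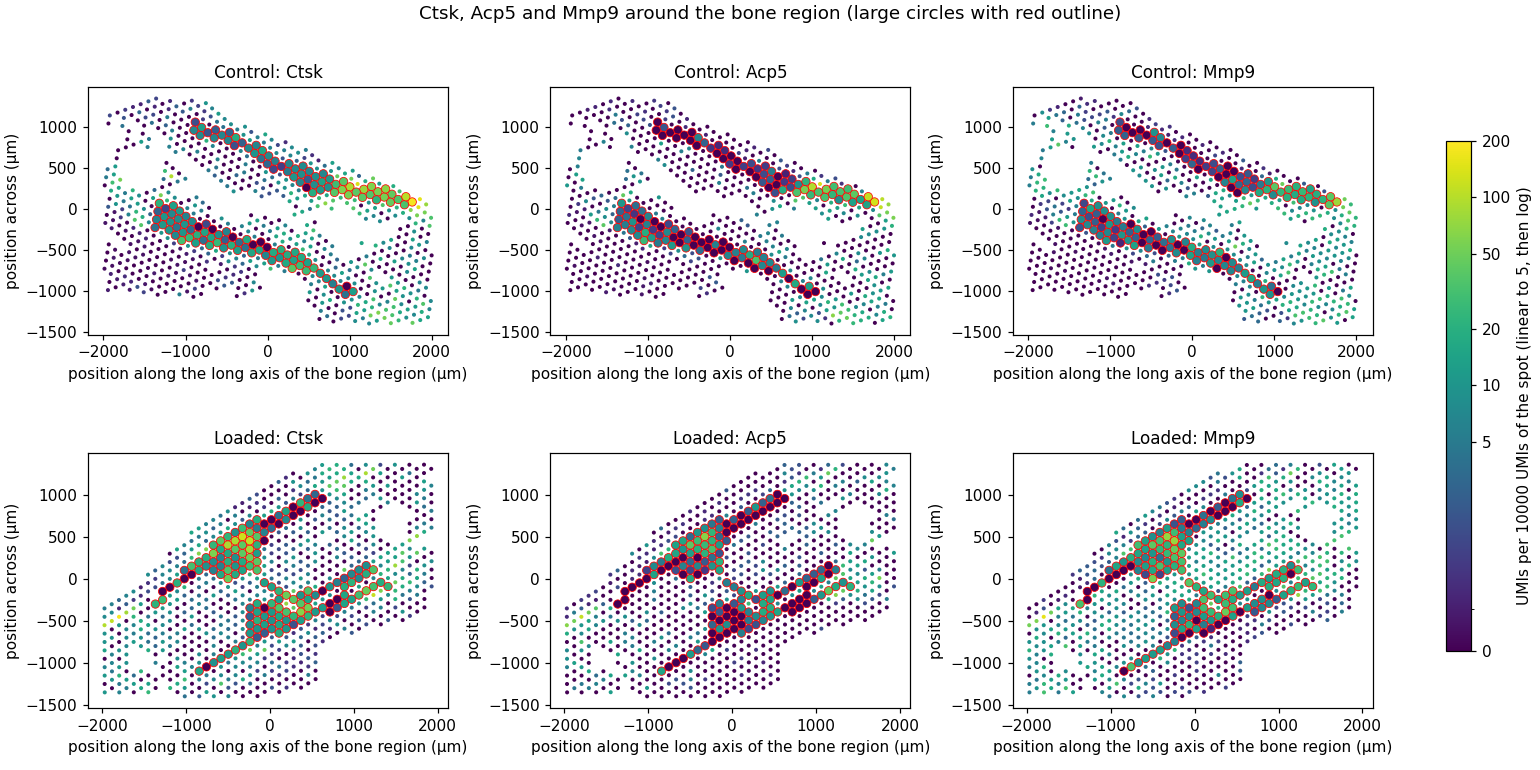
Level of Ctsk, Acp5 and Mmp9 (UMIs per 10000 UMIs of a spot, color, linear to 5 and then logarithmic) by position in μm, in the Control section (top) and the Loaded section (bottom). Bone spots are the large circles with a red outline, and spots under 500 UMIs are left out. In Control, the bright bone spots form a run at the right end of the upper side (block 2b), and in Loaded they lie on both sides.

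The spots with the most UMIs of the 10 genes are given as examples. The Control spot with the most UMIs of the 10 genes lay in block 2b and held 79 Ctsk, 80 Acp5, 33 Mmp9, 5 Atp6v0d2, 3 Oscar, 1 Calcr, 1 Dcstamp, 2 Nfatc1 and 11 Jdp2 UMIs, that is 9 of the 10 genes and 2.55% of its 8444 UMIs. The next Control spots, also in block 2b, held 175 and 139 UMIs of the 10 genes, compared with a region median of 7 per spot. The leading Loaded spot, in block 2a, held 52 Ctsk, 27 Acp5, 30 Mmp9, 1 Atp6v0d2, 1 Oscar and 1 Jdp2 UMIs, or 2.70% of its 4153 UMIs, against a region median of 7.5. Each of these spots carried all the enzymes at once, and the leading spot of each section also held the receptor Oscar and the fusion gene Atp6v0d2. Because the spots were picked for their UMIs of these genes, holding several of them follows in part from the choice. Ctsk was found in 93.9% of the Control and 87.0% of the Loaded bone spots, and Mmp9 in 80.2% and 82.9%. The 10% of spots with the most UMIs of a gene held 52.4% of the Ctsk, 66.1% of the Acp5 and 47.5% of the Mmp9 UMIs in Control (14 spots) and 45.0%, 50% and 42.2% in Loaded (15 spots).

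Clustering in space was described by Moran's I, which is near 0 when adjacent spots are unrelated and rises toward 1 when they are alike. It was computed over the 261 Control and 294 Loaded pairs of adjacent bone spots on log2(normalized UMIs + 1), for genes with at least 50 UMIs in the region. In Control, Moran's I was 0.525 for Acp5, 0.505 for Ctsk, 0.414 for Mmp9 and 0.157 for Jdp2, against a median of 0.0673 over 2007 genes. In Loaded, it was 0.458 for Acp5, 0.442 for Ctsk, 0.338 for Mmp9 and 0.183 for Jdp2, against a median of 0.0266 over 1507 genes. Acp5 exceeded 96.5% of these genes in Control and 99.1% in Loaded, and Jdp2 exceeded 74.8% and 93.7%. Genes with more UMIs tended to have a higher Moran's I, and these shares are not matched for UMI count. They therefore do not show that the clustering is unusual for genes of like depth. In Control, for example, Ibsp (285 UMIs) was at 0.540 and Spp1 (520 UMIs) at 0.511, in the range of the enzymes. The other 6 genes had fewer than 50 UMIs and are not counted, and their values reached at most 0.249 in Control and 0.165 in Loaded.

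The Control values rested on block 2b. Without it, Moran's I in Control was 0.199 for Ctsk, 0.251 for Acp5, 0.158 for Mmp9 and −0.01 for Jdp2, against a median of 0.0834 over 1208 genes. Ctsk then exceeded 77.1% of the genes. In Loaded, leaving out any 1 block left Ctsk between 0.344 and 0.499 and Acp5 between 0.424 and 0.453. Mmp9 fell to 0.195 without Loaded block 2b and was between 0.340 and 0.407 without any other block.

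**Figure D2:**
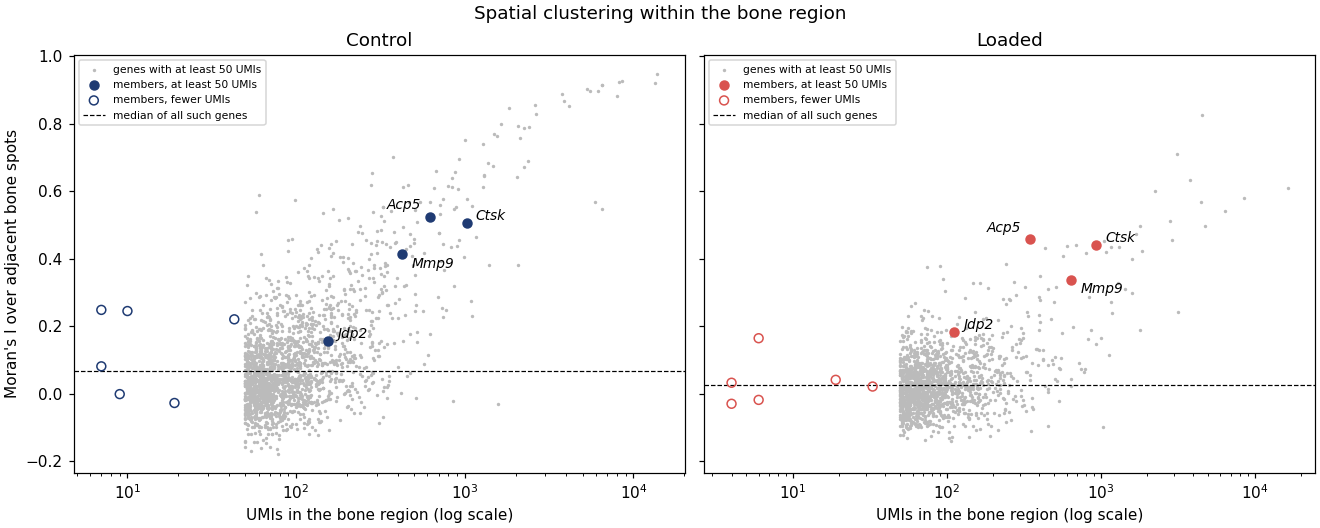
Moran's I (vertical axis) against the UMIs of a gene in the bone region (horizontal axis, log scale) for every gene with at least 50 UMIs (gray) and for the 10 osteoclast genes (colored, open circles for those with fewer UMIs), with the dashed line at the median of all such genes. Acp5, Ctsk and Mmp9 lie between 0.338 and 0.525 in both sections, and genes with more UMIs tend to have higher values.

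The spots richest in a gene adjoined each other. Among the 20% of bone spots with the highest level of Ctsk (27 Control and 30 Loaded spots), 71.4% of the neighboring bone spots in Control and 48.1% in Loaded were also in that set, compared with 6.60% and 15.2% for the neighbors of the remaining spots. The largest connected patch comprised 19 of the 27 Control spots and 14 of the 30 Loaded spots. In Control, a single block held 70.4% of these top spots for Ctsk, 74.1% for Acp5 and 66.7% for Mmp9. The largest share of a Loaded block was 33.3%, 40.0% and 33.3%. The Control neighbor shares and patches thus largely describe 1 block. Acp5 gave 68.0% and 48.0% with patches of 19 and 13 spots, and Mmp9 gave 55.4% and 38.7% with patches of 17 and 11 spots. Jdp2, an AP-1 family repressor that promotes osteoclast differentiation but is expressed in many cell types, gave 25.5% in Control and 21.1% in Loaded, close to the 18.1% and 23.1% for the neighbors of its remaining spots.

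The patches of the enzymes coincided in large part. The top 20% of spots for Ctsk and for Acp5 shared 21 of 27 spots (77.8%) in Control and 20 of 30 (66.7%) in Loaded. Ctsk and Mmp9 shared 17 spots (63.0%) and 21 spots (70.0%), respectively, whereas Ctsk and Jdp2 shared 13 (48.1%) and 10 (33.3%). Across spots, the Pearson correlation of Ctsk with Acp5 was 0.67 in Control (n = 131 spots) and 0.58 in Loaded (n = 146 spots), that of Ctsk with Mmp9 was 0.50 and 0.55, and that of Acp5 with Mmp9 was 0.65 and 0.54. These correlations describe spots that share a section, a size factor and their neighbors. Unrelated sets of 20% of the spots would share about 20% of their members. In Control, a single block held 70.4% of the top Ctsk and 74.1% of the top Acp5 spots, so the Control overlap describes this block in large part. The overlaps and correlations are not given with a block left out. Ctsk correlated with the UMI total of a spot at 0.09 in Control and 0.41 in Loaded.

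Among 443 genes with at least 100 UMIs in each bone region, the 5 most like Ctsk across spots, by the mean of both sections' correlations, were Acp5 (0.62), Mmp9 (0.53), Spp1 (0.50), Mmp13 (0.47) and Col12a1 (0.38). Spp1 encodes osteopontin, a matrix protein made by osteoblasts and osteoclasts, and Mmp13 encodes a collagenase of osteoblasts and hypertrophic chondrocytes. For Acp5, they were Ctsk (0.62), Mmp9 (0.60), Mmp13 (0.52), Spp1 (0.50) and Ibsp (0.38), and for Mmp9 they were Acp5 (0.60), Ctsk (0.53), Mmp13 (0.44), Spp1 (0.39) and Ibsp (0.30). The bone matrix genes on these lists were less alike in Loaded than in Control. Ibsp, for example, correlated with Acp5 at 0.61 in Control and 0.15 in Loaded, and the osteoblast marker sum correlated with Ctsk at 0.50 and 0.11. This difference between the sections was not tested. Mmp9 correlated with the granulocyte marker sum at −0.00 in the Control and 0.12 in the Loaded bone region.

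The remaining genes were sparse. Atp6v0d2, a proton pump subunit needed for fusion of osteoclast precursors, had 43 Control and 33 Loaded UMIs in the bone regions. Dcstamp and Ocstamp, the membrane proteins that drive fusion, had 9 and 7 UMIs in Control and 4 and 6 in Loaded. Calcr, the calcitonin receptor that marks mature osteoclasts, had 7 and 6 UMIs, with 4 of the 6 Loaded UMIs in a single spot, and Oscar had 10 and 4. Nfatc1, the transcription factor that drives osteoclast differentiation and is used in many other cells, had 19 UMIs in each region.

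Spots with a UMI of the fusion genes or receptors held more Ctsk than other spots. Every spot with a UMI of Calcr, Oscar, Dcstamp or Ocstamp also held Ctsk, in 7, 8, 7 and 7 Control spots and in 3, 4, 4 and 6 Loaded spots, respectively. Ctsk itself was found in 93.9% of the Control and 87.0% of the Loaded bone spots, so this overlap is high from the outset. Atp6v0d2 shared its spot with Ctsk in 30 of 30 Control and 25 of 27 Loaded spots, and Nfatc1 in 16 of 17 and 15 of 18, which for Nfatc1 in Loaded (83.3%) was below the 87.5% of spots without Nfatc1. The 42 Control spots with any UMI of Atp6v0d2, Calcr, Oscar, Dcstamp or Ocstamp held a mean of 17.1 Ctsk UMIs against 3.43 in the other 89 spots. The 37 such Loaded spots held 13.0 against 4.17 in the other 109. After each spot was thinned to 1000 UMIs in 1 random draw, the means were 5.11 and 1.05 in Control (18 and 113 spots) and 3.40 and 1.77 in Loaded (20 and 111 spots). Acp5 showed 3.44 against 0.451 UMIs in Control and 0.950 against 0.676 in Loaded in the same thinned spots. At 500 UMIs per spot, the Acp5 means in Loaded were in the opposite order, 0.111 against 0.328, so no Loaded difference in Acp5 is read from the thinned spots. By block, 9 of the 10 Control Oscar UMIs, 6 of the 9 Dcstamp UMIs, 5 of the 7 Calcr UMIs and 28 of the 43 Atp6v0d2 UMIs were in block 2b, whereas Nfatc1 had 6 of 19 there.

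At equal depth, few of the genes were seen in any one spot. In the thinned spots, the median was 2 of the 10 genes per bone spot in Control and 2 in Loaded (131 spots each, 15 Loaded spots with fewer than 1000 UMIs left out). At least 4 genes were found in 14 Control and 20 Loaded spots, and the maximum was 7 in 2 Control spots and 6 in 1 Loaded spot. Averaged over all possible draws, the number was 1.90 genes per bone spot in Control and 2.19 in Loaded. It was 1.23 and 1.39 in cavity spots (those enclosed between bone spots), 0.779 and 0.792 in muscle spots and 1.97 and 1.66 in the spots of none of these classes. On the same basis, Ctsk was expected in 66.5% of the Control and 74.5% of the Loaded bone spots, Acp5 in 38.6% and 41.6%, Mmp9 in 45.2% and 66.3%, and Jdp2 in 25.0% and 20.7%. Without thinning, the median was 3 in both sections.

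Between the bone regions as a whole, none of the 10 genes differed by more than 2-fold, against 20.4% of the 10003 genes with at least 10 UMIs over both regions. The median log2 ratio of Loaded over Control was 0.03 for the 10 genes and 0.02 for all 10003 genes. Ctsk measured 6.65 normalized UMIs per spot in Control and 7.61 in Loaded (1025 and 935 UMIs), a log2 ratio of 0.19 (interval 0.07 to 0.32). Acp5 measured 4.06 and 2.83 (626 and 348 UMIs), a log2 ratio of −0.52 (−0.71 to −0.33). Mmp9 measured 2.77 and 5.24 (427 and 644 UMIs), a log2 ratio of 0.92 (0.74 to 1.10). The enzymes thus differed in direction, and in all 3 the 4 Control and 4 Loaded blocks overlapped. For 0 of the 10 genes were all blocks of one section above or below those of the other, against 6.71% of the 10003 genes.

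These ratios depended on block 2b of the Control region. Without it, the log2 ratio was 1.06 for Ctsk, 0.73 for Acp5 and 1.58 for Mmp9, so that Acp5 changed sign and Ctsk and Mmp9 exceeded 2-fold. Without any other single block of either section, Ctsk lay between −0.12 and 0.33, Acp5 between −0.93 and −0.32, and Mmp9 between 0.60 and 0.99. When only spots with a muscle share below 5% were kept, 16 in Control and 27 in Loaded, the log2 ratios were −0.54, −1.46 and 0.17, respectively. Of these 16 Control spots, 14 lay in block 2b. Scaling by the UMI totals of the regions instead moved the log2 ratio of every gene up by 0.12, and Mmp9 then passed 2-fold.

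The other genes had wider intervals than the enzymes, though those of Jdp2 and Atp6v0d2 stayed within 2-fold for counting error. The log2 ratio of Jdp2 was −0.14 (−0.51 to 0.22, 154 and 111 UMIs), that of Atp6v0d2 was −0.05 (−0.75 to 0.63) and that of Nfatc1 was 0.33 (−0.67 to 1.32). Calcr and Ocstamp each had a log2 ratio of 0.11 (−1.74 to 1.90). For Oscar it was −0.99 (−3.12 to 0.80) and for Dcstamp −0.84 (−2.99 to 1.00). Differences of 2-fold in these last 4 genes were not detectable at this depth. Granulocyte markers, whose cells also carry Mmp9, made up 0.111% of the UMIs in the Control and 0.443% in the Loaded bone region. Of the 10 listed markers, 9 were more than 2-fold higher in Loaded, against 10.6% of the 10003 genes. For 3 of the 10 markers, all Loaded blocks were above all Control blocks, against 4.02% of the 10003 genes. Macrophage markers made up 0.0890% and 0.111%. The part of these cells in the Mmp9 level was not tested.

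**Figure D3:**
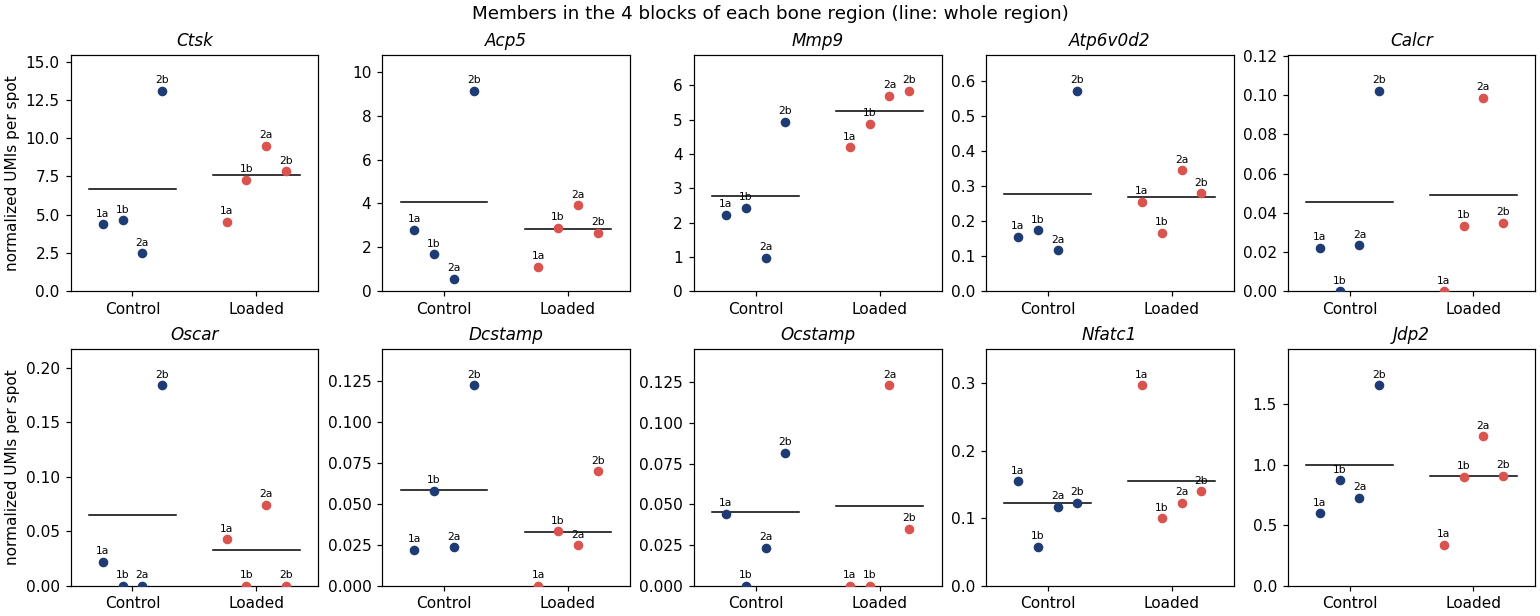
Normalized UMIs per spot (vertical axis, from 0, with its own scale for each gene) in the 4 blocks of the Control (blue) and Loaded (red) bone region, with the block label above each point and a line at the level of the whole region. Control block 2b is the highest Control block for 9 of the 10 genes, the exception being Nfatc1, and the points of both sections overlap for every gene. Ocstamp, Calcr, Dcstamp and Oscar have only 4 to 9 UMIs in block 2b. The share of all genes that are highest in this block is not given, so the count does not set the 10 genes apart.

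Genes that act around the 10 were examined as 5 lists of regulators and effectors. Of 46 listed genes, 44 were in the files and 42 had at least 10 UMIs over both regions. Among these 42, 4 were more than 2-fold higher and 4 more than 2-fold lower in Loaded. These shares are close to those over all genes (10.6% and 9.81%, respectively), so the counts do not set the lists apart. The median log2 ratio of the 42 genes was 0.24. Named after their values were seen, the 4 higher genes were Tnfrsf11a, which encodes RANK (5 and 13 UMIs, log2 ratio 1.71), the kinase Syk (20 and 48 UMIs, 1.59), the adaptor Pstpip1 (12 and 23 UMIs, 1.27) and the transcription factor Prdm1 (6 and 11 UMIs, 1.20). The 4 lower genes were Il34, a second ligand of the M-CSF receptor (13 and 1 UMIs, −3.37), Siglec15 (18 and 3 UMIs, −2.26), the ion exchanger Slc9b2 (12 and 3 UMIs, −1.67) and the repressor Bcl6 (47 and 18 UMIs, −1.06). Most of these 8 genes rested on few UMIs, and the intervals of Prdm1 (−0.36 to 2.92) and Slc9b2 (−4.14 to 0.22) included 0.

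Among the ligands and receptors that start osteoclast differentiation, Csf1r, the receptor for macrophage colony-stimulating factor, had 79 Control and 45 Loaded UMIs (log2 ratio −0.48, interval −1.05 to 0.06). Tnfsf11, which encodes RANK ligand, had 10 and 11 UMIs, and its decoy receptor gene Tnfrsf11b had 9 and 10, too few to resolve a 2-fold difference. Of the 11 tested genes of costimulation and signaling, the signaling adaptors Fcer1g (61 and 82 UMIs, log2 ratio 0.75) and Tyrobp (61 and 60 UMIs, 0.30) and the kinase Syk had the most UMIs. For Fcer1g and Syk, all 4 Loaded blocks were above all 4 Control blocks, which held for 4.02% of all genes. Over all lists, 2 of the 42 tested genes were above in this way and 2 were below. The genes below were Nfkbia and Il34 (13 and 1 UMIs). These counts are too small to set the lists apart from all genes (4.02% above and 2.69% below). In the adhesion list, Cd44 (0.31), Vcl (−0.15) and Itgav (−0.11), the genes with the most UMIs, were within 2-fold, and Pstpip1 and Siglec15 were the members past it, in opposite directions. In the list for acid secretion and ion transport, 1 of 15 tested genes (Slc9b2) was past 2-fold, against 20.4% of all genes. Those within it included Car2, the carbonic anhydrase that supplies protons (149 and 164 UMIs, log2 ratio 0.47), the proton pump subunit gene Atp6v1e1 (143 and 153 UMIs, 0.43) and Ckb (92 and 84 UMIs, 0.20). The 4 inhibitors tested had log2 ratios from −1.06 to −0.37. Of these, Nfkbia (104 and 64 UMIs, −0.37) had all Loaded blocks below the Control blocks (2.69% of all genes did), and Bcl6 passed 2-fold.

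Outside the bone region, each spot was assigned to the cavity (172 Control and 181 Loaded spots), to muscle (at least 10% of its UMIs from muscle markers, 1032 and 694 spots) or to a remaining class (627 and 415 spots). Cavity spots had bone spots on both hands of them across the long axis. These bone spots could belong to the same side, so the class can include unselected spots within a side as well as marrow. Levels are given as UMIs per 10000 UMIs of the class. Ctsk in bone, cavity, muscle and remaining spots was at 18.4, 6.08, 2.67 and 22.3 in Control and at 22.9, 7.03, 3.83 and 16.2 in Loaded. Acp5 was at 11.2, 2.40, 1.60 and 14.2 in Control and at 8.51, 2.98, 1.49 and 8.53 in Loaded. Both genes were thus low in muscle and cavity. In Control, the remaining spots, whose histology was not annotated here, held more of both than the bone region did. In Loaded, Ctsk was higher in the bone region than in the remaining spots and Acp5 was at a like level. Muscle markers made up 15.8% of the bone and 4.94% of the remaining UMIs in Control, and 8.30% and 6.60% in Loaded. The part of this difference in the levels was not tested. The bone region was limited to bone between the middle pins, so the remaining spots can include other bone. Osteocyte markers made up 0.0384% of the UMIs of the remaining spots in Control and 0.0133% in Loaded. The bone regions had 0.00933% and 0.0799%, respectively.

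Mmp9 differed from the other enzymes in the cavity. Its level in bone, cavity, muscle and remaining spots was 7.66, 7.16, 1.55 and 12.5 in Control and 15.7, 10.4, 2.60 and 12.3 in Loaded. The log2 ratio of bone over cavity was 0.10 in Control (−0.13 to 0.33) and 0.60 in Loaded (0.43 to 0.77). For Ctsk, this ratio was 1.60 (1.39 to 1.81) and 1.70 (1.52 to 1.88), and for Acp5 it was 2.22 (1.90 to 2.57) and 1.52 (1.24 to 1.80). Granulocyte markers made up 0.504% of the cavity UMIs in Control and 1.07% in Loaded, above the bone regions, and their correlation with Mmp9 across cavity spots was 0.08 and 0.27. The correlation of Mmp9 with Ctsk across the same spots was 0.34 and 0.26. The part of granulocytes in the cavity level of Mmp9 was not tested. Nfatc1 was at 0.341 in bone and 0.442 in the cavity in Control and at 0.465 and 0.699 in Loaded, with a log2 ratio of −0.37 (−1.41 to 0.68) and −0.59 (−1.48 to 0.26).

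Compared with all spots outside the bone region, 9 of the 10 genes were more than 2-fold higher in bone in Control, against 27.9% of 14725 genes, and 8 of the 10 in Loaded, against 16.6% of 13850 genes. The Control count fell to 2 of 10 without block 2b, and was 9 without any other block. The Loaded count was between 6 and 9 without any 1 block. The share of all genes is not given with a block left out, so these counts are not set against it. Over muscle spots alone, 10 of 10 genes in Control (background 40.0%) and 8 of 8 tested in Loaded (27.1%) were more than 2-fold higher in bone. Over the cavity alone, 6 of 8 tested in Control (15.7%) and 3 of 7 in Loaded (12.6%) were, and over the remaining spots 0 of 10 (4.95%) and 1 of 9 (4.43%, Calcr with 6 bone UMIs). Calcr had 0 UMIs in the 181 Loaded cavity spots.

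**Figure D4:**
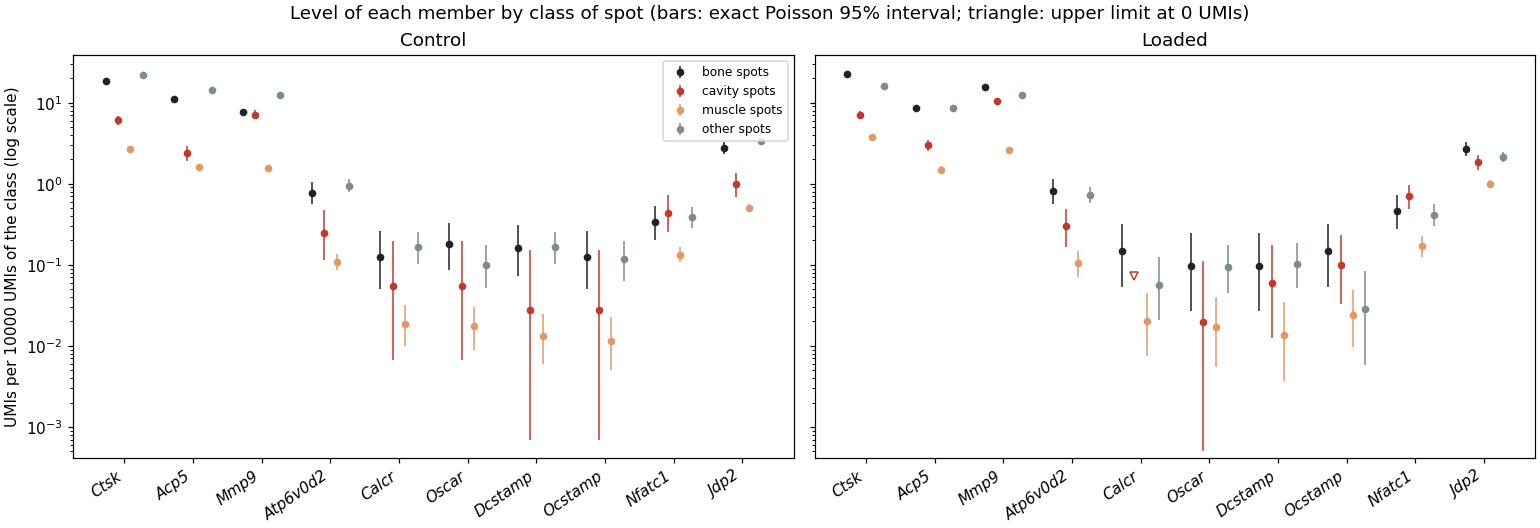
Level of each gene (UMIs per 10000 UMIs of the class, log scale) in bone, cavity, muscle and remaining (other) spots of the Control and Loaded sections, with exact Poisson 95% intervals for counting error and a triangle at the upper limit where a class had 0 UMIs. Ctsk, Acp5 and Mmp9 are lowest in muscle spots, and Mmp9 and Nfatc1 in the cavity lie close to or above their bone level in Control.

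With distance from the bone region, the levels in the Loaded cavity fell quickly for Ctsk and slowly for Mmp9. Loaded cavity spots that adjoined the bone region held 13.0 Ctsk UMIs per 10000, those 2 steps away 3.32 and those 3 to 5 steps away 3.21, whereas Mmp9 was at 12.5, 10.0 and 8.38. In the Control cavity, no such fall was seen for Ctsk (6.53, 7.39 and 4.79) or Mmp9 (6.76, 9.40 and 6.10), and Acp5 was at 3.77, 2.02 and 1.46. The osteoblast marker share of the same spots was 3.83%, 1.32% and 0.826% in Loaded and 1.10%, 1.06% and 0.813% in Control, and its part in the profiles was not tested. In muscle spots, Ctsk was at 5.92 in Control and 10.8 in Loaded next to the bone region and at 2.37 and 3.79 at 3 to 5 steps. Farther out, Control muscle spots were at 1.64 at 11 to 20 steps but at 4.21 at 21 or more steps. Loaded muscle spots were at 3.12 and 1.62 in the same bins. RNA that spreads between spots was not measured and its part in these profiles was not tested.

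Most of the spots with the highest levels of the enzymes lay outside the selected bone, which holds a small share of the spots. Of the 33 Control spots (2% of those with at least 1000 UMIs) with the most Ctsk per 10000 UMIs, 26 were in the remaining class, at a median of 26.5 steps from the bone region, and 4 were in the bone region. Of the 28 such Loaded spots, 17 were in the remaining class, at a median of 8 steps, and 6 in the bone region. For Acp5, 26 of 33 and 17 of 28 spots were in the remaining class, and for Mmp9 28 of 33 and 15 of 28. As a share of the spots of a class, the top Ctsk spots were 3.05% of bone and 5.16% of remaining spots in Control, and 4.58% and 4.29% in Loaded. For Acp5, the shares were 2.29% and 5.16% in Control and 3.05% and 4.29% in Loaded. For Mmp9, they were 0.763% and 5.56% in Control and 5.34% and 3.79% in Loaded. In Control, remaining spots at 21 or more steps had 31.3 Ctsk, 21.6 Acp5 and 17.6 Mmp9 UMIs per 10000 (295 spots) and an osteoblast marker share of 4.74%, higher than the 2.10% of the bone region. In Loaded, remaining spots at 6 to 10 steps had 28.8 Ctsk, 16.3 Acp5 and 19.0 Mmp9 UMIs per 10000 (72 spots), with an osteoblast share of 1.90%. These are the distance bins with the highest levels in each section. Control remaining spots that adjoined the bone region (36 spots) also had more Ctsk (25.2) and Acp5 (13.8) than the bone region (18.4 and 11.2). Their Mmp9 was lower (6.36 against 7.66). Loaded remaining spots at 21 or more steps had 6.83 Ctsk, 3.87 Acp5 and 7.16 Mmp9 (53 spots).

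**Figure D5:**
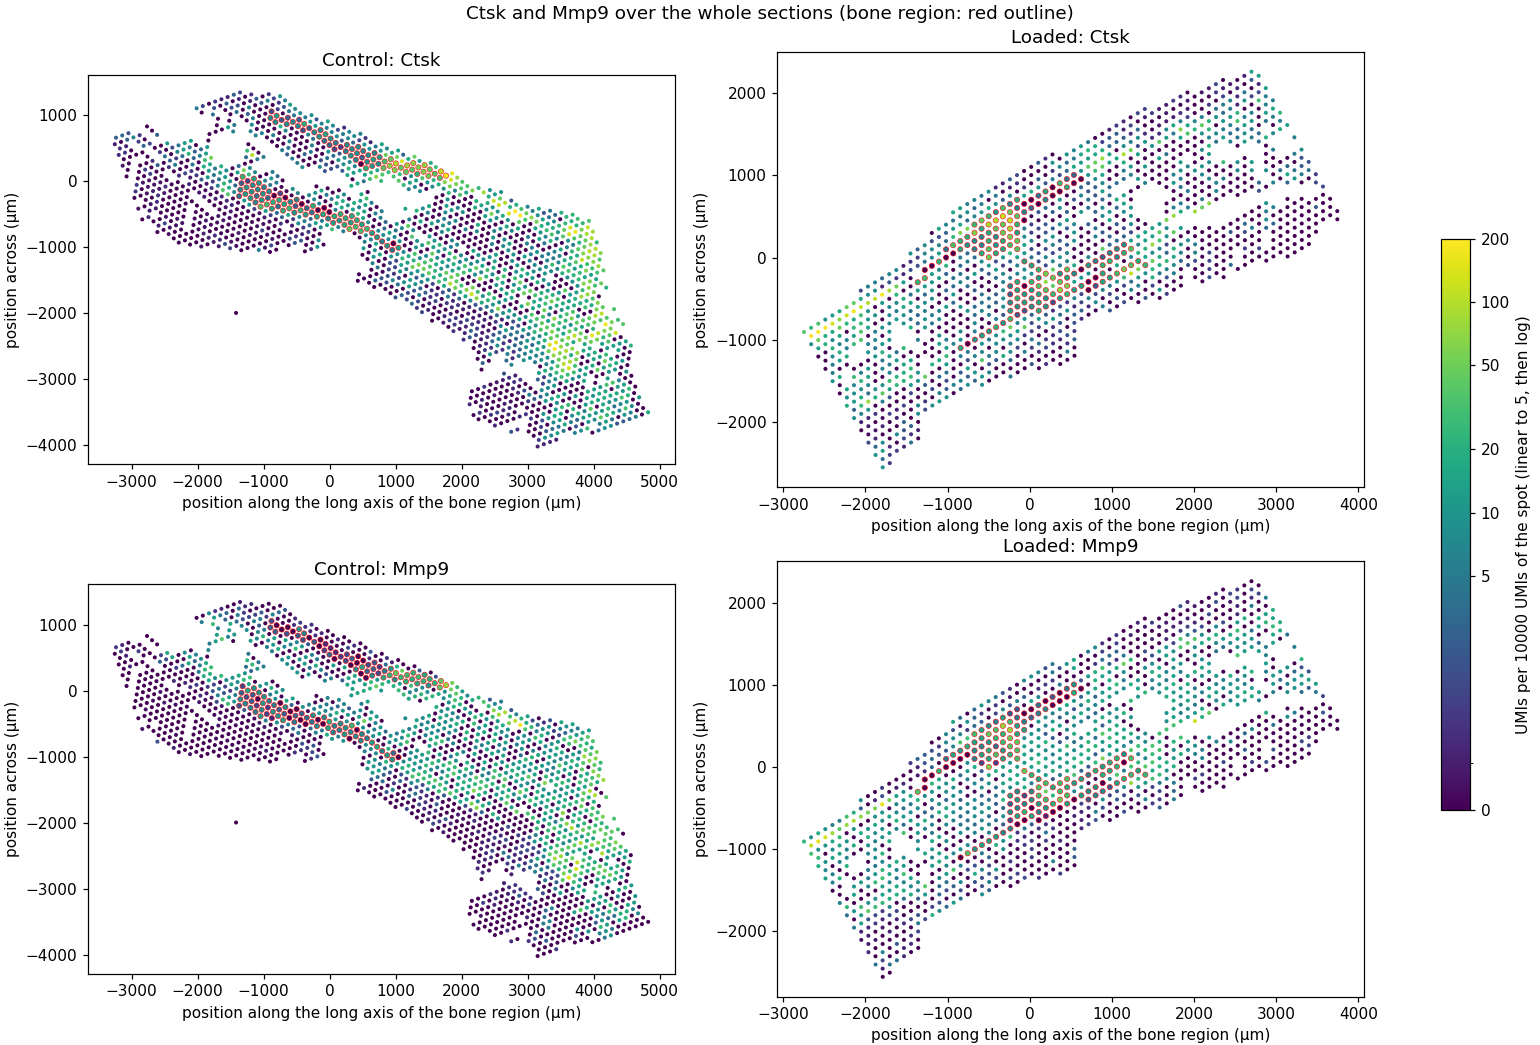
Level of Ctsk (top) and Mmp9 (bottom) in UMIs per 10000 UMIs of a spot (color, linear to 5 and then logarithmic) over the whole Control (left) and Loaded (right) sections, by position in μm, with the bone region outlined in red and spots under 500 UMIs left out. Bright spots lie far to the right of the Control bone region and along the edge at the left end of the Loaded section, while the cavity next to the bone shows Mmp9 more evenly than Ctsk.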

How the data were processed

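Femur sections of 1 Control and 1 Loaded mouse were measured with the 10x Genomics Visium assay for FFPE tissue, in which probe pairs are counted by UMI. The authors deposited raw UMI counts per gene and spot, written by Space Ranger 2.0.0 per the file headers (mm10 per the labels), without normalization. Bone spots were taken from the authors' barcode list. The 10 genes and all lists were chosen with earlier results of these data known.

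For each region, summed counts were scaled by scran 1.30.0 size factors computed over the bone spots of both sections (R 4.3.3, Python 3.11.15). Log2 ratios carry exact conditional binomial 95% intervals, and levels exact Poisson intervals. A class with 0 UMIs was set to 3 UMIs for a bound. UMI counts limit the precision, and no interval includes variation between mice, amplification or the clumping of UMIs in some spots and blocks. The variance of the Control UMIs per bone spot was 21.1 times the mean for Ctsk and 27.0 times for Acp5. The intervals are therefore too narrow for the spread between spots. The authors tested spots with DESeq2. Spots of 1 section are not replicates, so that test was not repeated. Spots were thinned to 1000 UMIs for co-detection. Cavity spots were non-bone spots with bone spots on both hands of them across the long axis, within a window of 150 μm along it. These bone spots could belong to the same side. As alternatives, ratios were scaled by region totals, by TMM factors (edgeR 4.0.16), by the median of ratios and by totals without muscle markers, and were computed in low-muscle spots (under 5%), with other filters and depths, and without each block. The effect of leaving out blocks on Moran's I and on the count of bone over other spots was added after seeing the data. Computations were tested on simulated Poisson counts, so the check of the intervals did not include clumping. The genes named are the 10 genes, the 3 genes of each list with the most UMIs over both bone regions, and the 5 genes most like Ctsk, Acp5 and Mmp9, while list genes past 2-fold were named after their values were seen. Gene positions are from GENCODE M21. Atp6v1a, Lilrb4a and Hba-a1 of the lists were not found under these symbols. A gene that this rule names is not reported here. The strain regions were not analysed here.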

Additional observations from a re-analysis of the deposited data

Results flagged for a closer look

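Ctsk and Mmp9 differed in direction between the sections when the bone region was set against the remaining spots, that is those outside bone, cavity and muscle. The log2 ratio of bone over remaining spots was −0.27 for Ctsk in Control (interval −0.38 to −0.17) and 0.49 in Loaded (0.38 to 0.61). For Mmp9 it was −0.70 in Control (−0.86 to −0.54) and 0.36 in Loaded (0.22 to 0.49). The counting intervals lie on opposite sides of 0, but the difference between the sections was not tested, since each is 1 section. The Acp5 ratio was −0.34 in Control and −0.00 in Loaded. The remaining spots of the sections are not the same tissue, with osteoblast markers at 3.14% of their UMIs in Control and 1.98% in Loaded.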

How the results depend on the processing

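No paired analysis was possible because each group holds 1 section. The count of the 10 genes past 2-fold between the bone regions, 0 as reported, became 1 with library totals (Mmp9), 1 with TMM factors and 1 with the median of ratios (Oscar in both), and 1 in the low-muscle spots, those under 5% (Acp5, of 5 genes tested). It became 2 without Control block 1a and 2 without 2a (Oscar and Dcstamp), 2 without Control block 2b (Ctsk and Mmp9, of 6 tested), 1 without Control block 1b, 1 without Loaded block 1a and 1 without 2a (Oscar), and 1 without Loaded block 2b (Dcstamp). Oscar, with 10 and 4 UMIs, lay just inside the 2-fold limit. The share of all genes past 2-fold is not given for these alternatives, so the counts are not set against it. The median log2 ratio of the genes, 0.03 as reported, became 0.82 without Control block 2b and −0.68 in the low-muscle spots, and moved by less than 1.5-fold in the other alternatives. The count of genes more than 2-fold higher in bone than in other spots became 2 of 10 in Control without block 2b (9 as reported, share of all genes without this block not given). It became 3 of 7 in Loaded when compared with cavity spots only (8 as reported). The median Moran's I of the 4 genes counted, 0.46 in Control, became 0.178 without Control block 2b, and the other alternatives kept it within 1.5-fold in both sections. The median number of genes found per spot, 2 as reported, became 3 without thinning, 3 in the low-muscle spots and 1 when thinned to 500 UMIs, in Control and Loaded alike. The part of the tissue differences between blocks in these changes was not tested. Among 14 alternatives for each single gene, the log2 ratio was above 0 in 14 for Mmp9, 12 for Ctsk and 1 for Acp5. With 4 to 19 UMIs per region for Calcr, Oscar, Dcstamp, Ocstamp and Nfatc1, depth limits any comparison of these genes.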

Other observations

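Both sections differed between the sides for the osteoclast genes. On side 2 of the bone region, Ctsk was at 8.14 normalized UMIs per spot in Control and 8.80 in Loaded, against 4.45 and 6.08 on side 1. Acp5 was at 5.13 and 3.40 on side 2 and at 2.48 and 2.11 on side 1. Mmp9 was at 3.10 and 5.75 on side 2 and at 2.29 and 4.59 on side 1. All 6 Loaded Ocstamp UMIs were on side 2. Of the 10 genes, 9 were higher on side 2 in both sections, the exception being Nfatc1 (0.120 against 0.128 in Control and 0.130 against 0.186 in Loaded). Of the 10003 genes with at least 10 UMIs over both regions, 31.0% were higher on side 2 in both sections. The count of 9 includes Calcr, Oscar, Dcstamp and Ocstamp, with 0 to 9 UMIs on a side, so it rests in part on few UMIs. In Control, the enzymes were high on side 2 in block 2b alone, and block 2a, the rest of side 2, was the lowest Control block for Ctsk (2.48), Acp5 (0.562) and Mmp9 (0.983). The sides carry no label that matches them anatomically between the sections, so side 2 need not be the same cortex, and with 1 section per group the difference was not tested.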
